A study of Mus musculus with 21 samples.

Results

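The replication-dependent histone genes are the mouse genes for linker histone H1 and the core histones H2A, H2B, H3 and H4 whose symbols begin with H2ac, H2bc, H3c or H4c and a number, or with Hist1h to Hist4h in older naming, together with H1f1 to H1f6. Of 49997 genes in the RefSeq table of GRCm38.p6, 67 were chosen in this way, 63 by their current symbol and 4 by an older symbol alone (H4f16, H2bu2, H2aw and H4bc24), and 4 pseudogenes were dropped. They comprised 6 H1, 18 H2A, 18 H2B, 12 H3 and 13 H4 genes. Chromosome 13 held 54 of them over 2219 kb, in blocks of 18, 5, 29 and 2 genes, chromosome 3 held 10 within 50.3 kb, chromosome 11 held 2 and chromosome 6 held 1.

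These genes supply the histones that package newly copied DNA, and their transcription rises as cells enter S phase and falls when cells leave the cell cycle. Most have no intron, and their mRNAs end in a stem-loop instead of a poly(A) tail. H3K4me3, the trimethylated form of lysine 4 on histone H3, marks the starts of active genes, and PSME3 is a nuclear activator of the proteasome.

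CUT&RUN, in which an antibody-tethered nuclease cuts out the DNA around a bound protein, was performed in C2C12 cells, a mouse myoblast line, to ask where PSME3 and H3K4me3 sat before and during differentiation. Cycling cells were grown in 20% FBS and frozen in 10% DMSO without fixation, with 3 replicates for each antibody. Day 2 cells had spent 48 h in 2% horse serum and were prepared in 4 ways, with 1 library per antibody in each. They were either frozen or assayed fresh, and either native or crosslinked, with 0.1% formaldehyde for 5 min. Only the frozen native preparation matched the cycling cells, and libraries made with IgG (7) were not analysed here.

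The deposited peak lists were of very unequal length. The PSME3 lists of cycling replicates 1, 2 and 3 held 1200, 776 and 3070 peaks, those of day 2 held between 18 and 186, and a list called by the authors on the pooled cycling replicates held 5812. The H3K4me3 lists held between 14372 and 40999 peaks, and read depth is unknown for all of them. H3K4me3 peaks lay at 5 of 5 myoblast markers in all 7 replicate and preparation lists, at 1 or 2 of 5 genes of differentiating muscle in the cycling lists and at 5 of 5 in the day 2 lists. Of 6 genes of other cell types, 2 had an H3K4me3 peak in cycling replicate 2 and none in the other 6 lists.

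The upstream sequences of 4 histone genes described below are shown. H1f2 and H1f3 were the histone genes with a PSME3 peak in more than 1 cycling replicate. H1f5 and H3c11 are neighbours without a PSME3 peak whose H3K4me3 rank differed between the states in opposite directions. Each sequence is the 250 bases before the annotated start, 5′ to 3′ on the gene's strand, from RefSeq GRCm38.p6. H1f2 is on the plus strand (chr13:23738557-23738806), as is H1f3 (chr13:23554782-23555031), and H1f5 (chr13:21780626-21780875) and H3c11 (chr13:21783398-21783647) are on the minus strand. Capitals mark any match, on either strand, to the 5 promoter motifs spelled out after the sequences, and in H3c11 a match to the H4 motif on the opposite strand overlaps a CCAAT.
H1f2: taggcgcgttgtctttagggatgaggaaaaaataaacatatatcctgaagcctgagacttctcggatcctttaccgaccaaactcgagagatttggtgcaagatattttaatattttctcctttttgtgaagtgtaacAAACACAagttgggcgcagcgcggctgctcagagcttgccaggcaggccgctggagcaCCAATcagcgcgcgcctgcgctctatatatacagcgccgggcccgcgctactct
H1f3: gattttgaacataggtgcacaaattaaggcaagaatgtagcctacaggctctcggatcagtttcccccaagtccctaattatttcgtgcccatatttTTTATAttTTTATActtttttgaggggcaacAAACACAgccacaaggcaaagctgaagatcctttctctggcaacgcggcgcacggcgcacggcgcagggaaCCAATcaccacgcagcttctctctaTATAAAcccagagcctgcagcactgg
H1f5: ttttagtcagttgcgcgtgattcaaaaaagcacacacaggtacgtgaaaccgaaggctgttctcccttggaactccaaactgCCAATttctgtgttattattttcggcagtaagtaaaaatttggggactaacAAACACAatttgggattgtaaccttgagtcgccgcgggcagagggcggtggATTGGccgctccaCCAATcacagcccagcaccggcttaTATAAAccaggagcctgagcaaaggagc
H3c11: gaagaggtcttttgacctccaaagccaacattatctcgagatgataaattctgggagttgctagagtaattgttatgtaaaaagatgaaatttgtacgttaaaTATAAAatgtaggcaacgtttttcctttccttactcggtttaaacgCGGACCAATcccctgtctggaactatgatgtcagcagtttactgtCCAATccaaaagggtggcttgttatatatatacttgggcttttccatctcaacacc

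All 3 H1 promoters held AAACACA, known as the H1 box, from -112 to -106 in H1f2, from -122 to -116 in H1f3 and from -117 to -111 in H1f5, counted back from the base before the start. Over both strands of the 250 bases, this motif was found at 5 of 6 H1 genes and at 6.22% of 27025 promoters. CCAAT was found at 51 of the 62 histone genes with a promoter sequence (82.3%), against 34.5% of all promoters, and TATAAA at 29 (46.8%), against 13%. ATTTGCA, the core of the octamer motif, was found at 7 of 18 H2A and 6 of 16 H2B genes and at no H1, H3 or H4 gene, against 3.48% of all promoters. GGTCCG, the core of an element known from H4 promoters, was found at 9 of 12 H4 genes, against 6.82%. These matches describe letters in the windows and are not binding sites.

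In cycling cells the pooled PSME3 list placed a peak within 1 kb of 31 of 67 histone genes (46.3%), where 11.8% of all genes had one. The single replicates placed a peak at far fewer histone genes. Replicate 1 had a PSME3 peak at 1 histone gene (1.49%, against 2.50% of all genes), replicate 2 at 2 (2.99%, against 1.93%) and replicate 3 at 12 (17.9%, against 7.08%). Of protein-coding genes alone, 4.56%, 3.6% and 13.4% had one in these replicates, so that histone genes were below this background in replicates 1 and 2, and 21.9% had one in the pooled list. The mean over replicates was 5.0 ± 6.1 genes (SD, n = 3), a spread larger than the mean, and it was 1.5 without replicate 3. In none of the 3 replicates did histone genes exceed other genes carrying the mark: among genes with a pooled H3K4me3 peak, the share with PSME3 in replicate 3 was 19.4% of histone genes and 19.6% of all genes. In replicates 1 and 2 these shares were 1.61% against 6.75% and 3.23% against 5.34%, and in the pooled list PSME3 was found at 31 of 62 histone genes, against 32.3% of all genes with the mark.

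**Figure D1:**
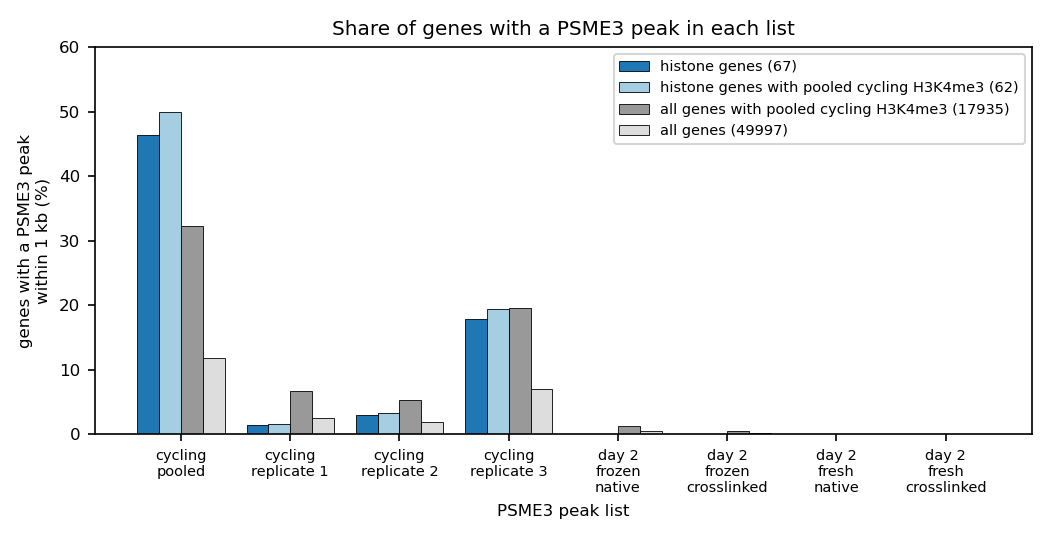
Percent of genes with a PSME3 peak within 1 kb (vertical axis) in each PSME3 list (horizontal axis), for histone genes, histone genes with pooled cycling H3K4me3, all genes with pooled cycling H3K4me3, and all genes. Both sets of histone genes stand above both sets of all genes in the pooled list (46.3% of the 67), are level with H3K4me3-marked genes in replicate 3, and are at 0 in all 4 day 2 lists.

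Few of the pooled calls recurred in the replicates. Of the 31 histone genes, 19 (61.3%) had a PSME3 peak in no replicate list, against 37.3% of all genes in the pooled list. When pooled peaks had to be found in at least 1 replicate list, 12 genes were left. That count was 12 again without replicate 1 or without replicate 2, and 2 without replicate 3. Of the 31 genes of the whole pooled list, 15 had a peak with a q-value of at most 0.01.

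H1f3 and H1f2, both linker histone genes, were the 2 histone genes with a PSME3 peak in at least 2 replicate lists (2.99%, against 2.26% of all genes), and no histone gene had one in all 3. At H1f3 the PSME3 fold enrichment, the ratio of signal to the background that MACS2 estimated, was 4.41 in replicate 2 and 3.35 in replicate 3, with no peak in replicate 1. Its pooled peak covered chr13:23554677-23556550, the whole gene, at 3.16. The pooled peak of H1f2 (chr13:23738866-23739808) had a fold enrichment of 2.95 and covered 91.9% of the gene. H1f2 had a fold enrichment of 3.87 in replicate 2 and 3.86 in replicate 3, again with no peak in replicate 1. The replicate peaks of both genes lay downstream of the upstream sequences printed above, with centres between 380 and 802 bp after the start. H4c6 was the 1 gene with a PSME3 peak in replicate 1 (4.15, chr13:23551496-23551642), and it had none in the pooled list or the other replicates.

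The other H1 genes with a pooled PSME3 peak were H1f4 (2.96), whose peak also lay within 1 kb of the annotated span of H2bc6 without touching it, and H1f1 (2.88). H1f5 and H1f6, the latter the testis H1, had none. In the other classes 8 of 18 H2A, 9 of 18 H2B, 5 of 12 H3 and 5 of 13 H4 genes had a pooled PSME3 peak. The highest pooled fold enrichments were 3.16 at H2ac15 and 3.12 at H2ac10 among H2A genes, 3.32 at H2bc14 and 3.24 at H2bc9 among H2B genes, 3.24 at H3c7 and 3.21 at H3c3 among H3 genes, and 2.99 at H4f16 and 2.98 at H4c8 among H4 genes. Of these, H2ac10, H3c7 and H3c3 were not touched by their peak, which lay within 1 kb of them and on the neighbouring H3c8, H2bc9 and H2bc3. The whole range over histone genes was narrow, from 2.72 to 3.32, around a median over the list of 2.92.

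**Figure D2:**
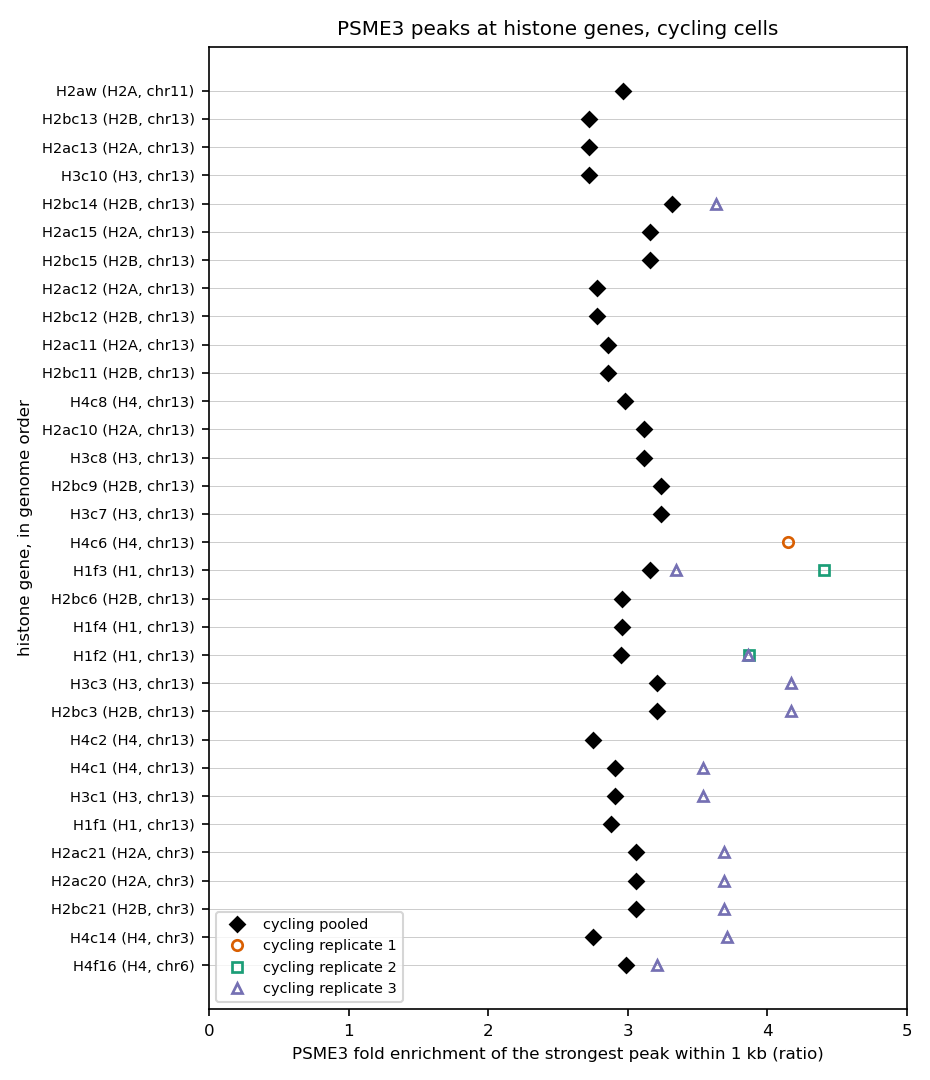
PSME3 fold enrichment (ratio, horizontal axis) of the strongest peak within 1 kb of each histone gene with a PSME3 peak in any cycling list (vertical axis, class and chromosome in brackets). Diamonds are the pooled list and open symbols the 3 replicates: triangles (replicate 3) accompany 12 genes, squares (replicate 2) H1f3 and H1f2, and the circle (replicate 1) H4c6.

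The 31 genes shared 19 pooled PSME3 peaks: 9 peaks lay at 1 histone gene, 8 at 2 and 2 at 3. The peaks were 244 to 1973 bp wide with a median of 700 bp, against a median of 431 bp over the list, and all 19 overlapped a histone gene itself. Of the 31 genes, 26 were overlapped by the peak and 17 had at least 50% of their span under it. For the 18 peaks within 1 kb of an annotated start, the centre lay downstream of it in 13 (72.2%, against 55.7% of all PSME3 peaks placed the same way). The median position over all 18 was 164 bp downstream, against 31.8 bp for all PSME3 peaks near a start. Their evidence was moderate, since -log10 q ran from 1.05 to 4.60 and 9 peaks (47.4%) had q-values no larger than 0.01, against 52.3% of the list. All 19 overlapped a pooled H3K4me3 peak, as did 93.6% of all pooled PSME3 peaks.

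Pooled PSME3 peaks were found on each chromosome that holds histone genes. On chromosome 13 a pooled PSME3 peak was found at 25 of 54 histone genes, on chromosome 3 at 4 of 10 (H2ac21, H2ac20, H2bc21 and H4c14), on chromosome 6 at H4f16 and on chromosome 11 at H2aw but not H2bu2. The 4 genes on chromosome 3 and H4f16 were also among the 12 of replicate 3, but had no peak in replicates 1 and 2. H2aw had a peak in no replicate list. The fold enrichment in replicate 3 was 3.69 at the peak shared by H2ac21, H2ac20 and H2bc21, 3.71 at H4c14 and 3.21 at H4f16. Of the other genes lying between the histone genes, 5 of 202 (2.48%) had a pooled PSME3 peak, and 0 of 50 protein-coding ones did. In replicate 3 the counts were 5 of 202 and 1 of 50, and in replicates 1 and 2 they were 0. Pooled H3K4me3 was found at 95 of the 202 (47.0%) and at 8 of the 50 (16%). Histone H2A and H2B genes often face away from each other across a short shared promoter. Among the 62 histone genes with a strand in the promoter table, 10 such pairs had starts 164 to 281 bp apart, and pairs with H2bc21 or H2bc4, which have none, were not counted. A pooled PSME3 peak touched the gap in 4 of the 10 and a pooled H3K4me3 peak in 7, while a PSME3 peak of a single replicate touched it in 0.

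**Figure D3:**
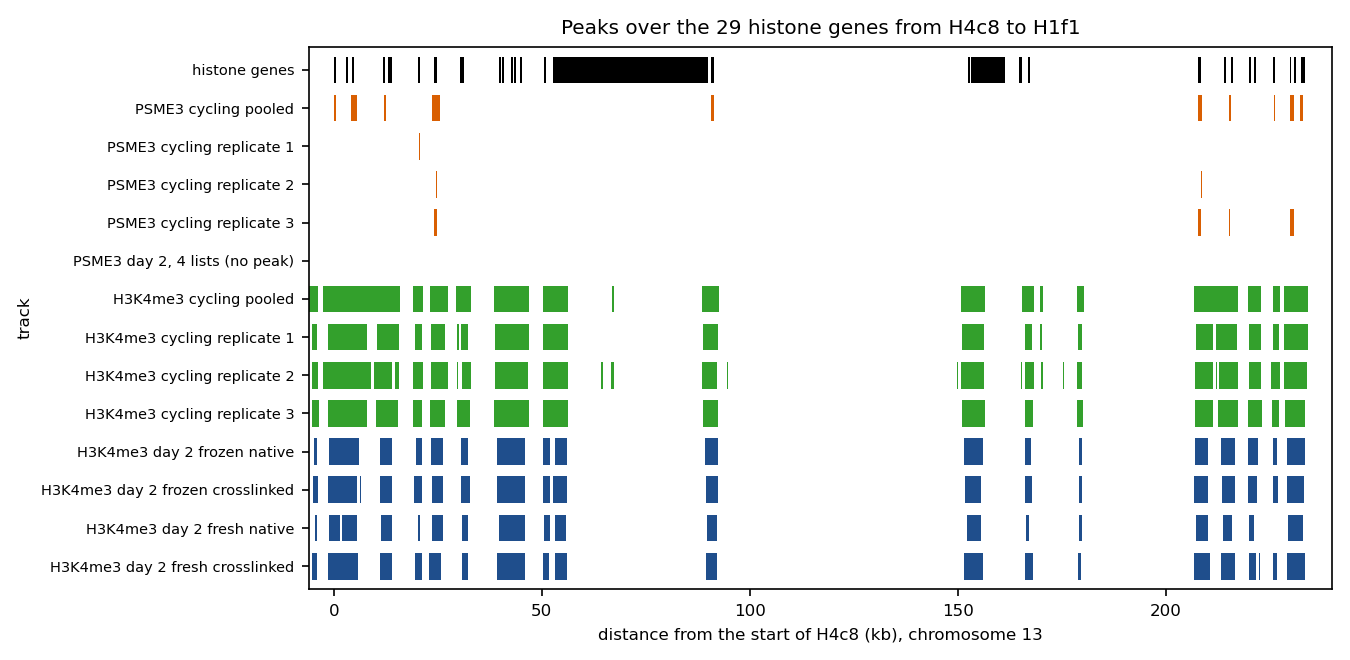
Peaks over the largest block of histone genes, drawn by distance in kb from the start of H4c8 on chromosome 13. The rows are the 29 genes, the PSME3 lists of cycling cells (10 pooled peaks, and 1, 2 and 4 in replicates 1, 2 and 3), the empty PSME3 lists of day 2, and the H3K4me3 lists, whose peaks cover most genes in every list and are wider in cycling cells. The long black bars are H2bc6 and H2bc4, for which the annotation includes longer transcripts.

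At day 2 no histone gene had a PSME3 peak in any of the 4 preparations. The background was 0.494% of all genes in the frozen native list, 0.192% in the frozen crosslinked, 0.0300% in the fresh native and 0.0220% in the fresh crosslinked list. At so low a background, the absence of a peak at 67 genes does not set them apart from other genes. Whether fewer sites were bound or fewer reads were obtained cannot be told apart from these lists.

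H3K4me3, in contrast, was present at nearly all histone genes in both states. It was found at 62, 61 and 60 of 67 genes in cycling replicates 1, 2 and 3 (33.5%, 38.7% and 34.0% of all genes), a mean of 61.0 ± 1.0 (SD, n = 3), and at 62 in the pooled list (35.9%). At day 2 it was found at 60 genes in frozen native cells (31.6% of all genes), 61 in frozen crosslinked cells (32.6%), 57 in fresh native cells (29.9%) and 59 in fresh crosslinked cells (32.4%). The ranges of the groups overlapped. All 12 H3 genes were marked in every list.

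There were 5 histone genes without H3K4me3 in any list: H2bc23, H2ac23, H4bc24, H2bc1 and H2ac1. H2bc1 and H2ac1 encode the H2B and H2A of the testis and stand alone at the far end of the chromosome 13 cluster. H2bc23, H2ac23 and H4bc24 share a stretch of 50 identical bases of their promoter windows with another histone gene, as do 12 of the 62 histone genes with a promoter sequence (H3c15 with H3c14, H2ac19 with H2ac18, H4c11 with H4c12, H4c17 with H4c18, and H2bc23, H2ac23, H2ac24 and H4bc24 among themselves). How reads from identical stretches were placed is not given in the sources used here, so the values of these 12 genes are uncertain. The part of sequence identity in the missing peaks was not tested.

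The mark was broad over the clusters in cycling cells and narrower at day 2. Peaks within 1 kb of histone genes summed to 129, 145 and 138 kb in cycling replicates 1, 2 and 3. At day 2 they summed to 98.6 kb (frozen native), 99.1 kb (frozen crosslinked), 75.3 kb (fresh native) and 98.4 kb (fresh crosslinked). The groups did not overlap, although the number of peaks behind the sums was alike, at 37, 41 and 33 in cycling replicates and 37, 39, 39 and 38 at day 2.

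Gene by gene, 57 histone genes had an H3K4me3 peak in all 7 lists. The median of their widest peak was 5260, 4979 and 5022 bp in cycling replicates and 3103, 3021, 2127 and 3078 bp in the day 2 lists, in the order above. The widest peak was narrower in every day 2 list than in every cycling list at 47 of 57 histone genes (82.5%), where 40.6% of 14431 genes were called so, and it was wider at none (background 0.942%). The median ratio of day 2 to cycling width was 0.631 for histone genes and 0.815 for all genes, and by class it was 0.745 for H1, 0.631 for H2A, 0.614 for H2B, 0.609 for H3 and 0.737 for H4. Neighbouring genes often shared a peak, so the 47 genes are not 47 separate peaks.

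**Figure D4:**
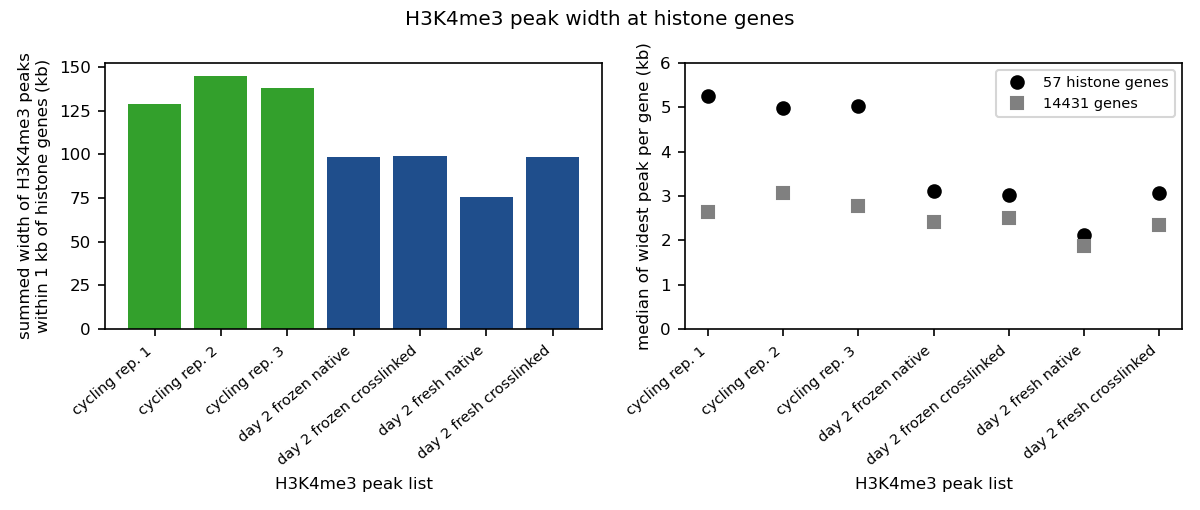
Left, summed width in kb of H3K4me3 peaks within 1 kb of histone genes in each list, and right, the median width in kb of the widest peak per gene for 57 histone genes (circles) and all genes with a peak in every list (squares). Both quantities were higher for histone genes in the 3 cycling lists than in the 4 day 2 lists, and the circles approach the squares at day 2.

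By the height of the strongest peak of each gene, H3K4me3 at histone genes was below that of most marked genes. Each gene was given the percentile of its strongest peak's fold enrichment among all genes with a peak in the same list, since fold enrichment itself is relative to the background of each library. The median percentile of the marked histone genes was 25.1, 37.5 and 35.1 in cycling replicates and 28.0, 32.4, 20.7 and 29.3 in the day 2 lists. Histone genes with and without a pooled PSME3 peak differed little in this respect, at median percentiles of 41.4 and 36.6 in the pooled H3K4me3 list, whereas all genes with and without PSME3 stood at 66.3 and 41.6. The H3K4me3 peaks were wider at the 31 histone genes with PSME3 (median 8816 bp) than at the 31 without (3505 bp), and the same order held for all genes (3475 and 2493 bp). In the 3 replicate lists the medians were 5317 against 2864 bp, 4979 against 3194 bp and 5022 against 3347 bp for histone genes. For all genes they were 2913 against 2204 bp, 3413 against 2461 bp and 3065 against 2308 bp, again in the same order. Histone genes under a joined peak each counted in these medians, so they are not medians over separate peaks. A single pooled H3K4me3 peak of 18394 bp, for example, lay at 5 of the histone genes with PSME3.

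Between cycling cells and day 2, the percentiles of the 57 genes differed in both directions. A gene was called when its 3 cycling and 4 day 2 values did not overlap, for which the smallest two-sided exact permutation p is 0.0571, so no single gene could reach 0.05. Of 57 histone genes, 8 were higher at day 2 (14%, where 4.51% of all genes were called higher) and 4 were lower (7.02%, where 19.7% were called lower). Their median difference, day 2 minus cycling, was -3.99 percentile points, close to the -4.54 of all genes. By class the median difference was 40.2 for the 5 H1 genes, 1.42 for H2A, -0.802 for H2B, -8.72 for H3 and -3.99 for H4.

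**Figure D5:**
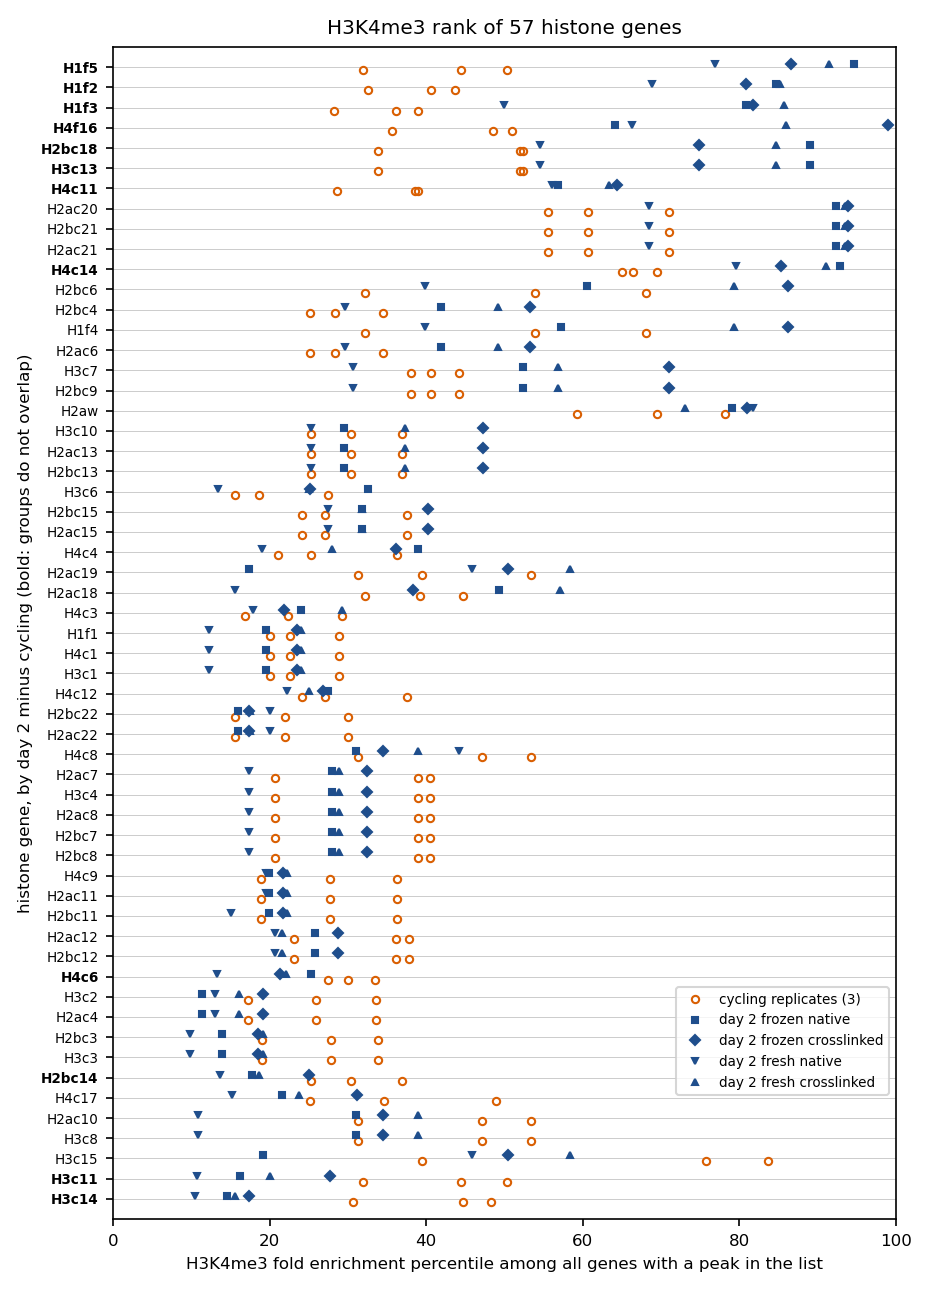
H3K4me3 percentile (horizontal axis) of 57 histone genes (vertical axis, ordered by day 2 minus cycling) in the 3 cycling replicates (open circles) and the 4 day 2 preparations (filled symbols). Bold names mark the 12 genes whose groups do not overlap, with H1f5, H1f2 and H1f3 at the top and H3c14 and H3c11 at the bottom, and genes that share their strongest peak in a list have the same value there.

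Linker histone genes led the genes that stood higher at day 2 by this percentile. The call was lost at H1f2 and H1f3 with percentiles among peaks, and at H1f5, H1f2 and H1f3 with the widest peak in place of fold enrichment, by which H1f5 was called lower. The H3K4me3 percentile of H1f5 was 31.9, 50.3 and 44.4 in cycling replicates 1, 2 and 3 and 94.6, 86.6, 76.9 and 91.4 at day 2 in the same order of preparations, a difference of 45.2. For H1f2 the values were 32.6, 43.7 and 40.6 in cycling cells and 84.7, 80.9, 68.8 and 85.2 at day 2, a difference of 40.9. For H1f3 they were 28.2, 38.9 and 36.1 in cycling cells and 80.9, 81.8, 49.9 and 85.7 at day 2, a difference of 40.2. H1f5, H1f2 and H1f3 were therefore in the lower or middle range of marked genes in cycling cells and above the middle at day 2 in all but 1 value (49.9), with fresh native cells the lowest day 2 sample each time. H1f4, with a difference of 14.2, and H1f1, with one of -3.99, overlapped between the groups, so this was not common to all H1 genes.

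H4f16, on chromosome 6, had percentiles of 48.5, 50.9 and 35.6 in cycling cells and 64.1, 99.0, 66.3 and 86.0 at day 2. H3c13 and H2bc18, neighbours on chromosome 3 under a single peak, had 33.9, 52.4 and 52.0 in cycling cells and 89.0, 74.9, 54.5 and 84.7 at day 2. Their lowest day 2 value was close to the highest cycling value, whereas H4f16 left a wider gap. The remaining higher genes were H4c11, with a difference of 24.7, and H4c14, with one of 20.3, both H4 genes. H4f16, H3c13, H2bc18, H4c11 and H4c14 all lost the call with percentiles among peaks and with the widest peak in place of fold enrichment. All of them kept it by -log10 q.

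Of the lower genes, H3c14 had percentiles of 30.6, 48.3 and 44.7 in cycling cells and 14.5, 17.4, 10.5 and 15.6 at day 2. Those of H3c11 were 31.9, 50.3 and 44.4 in cycling cells and 16.2, 27.7, 10.7 and 20.1 at day 2. The differences were -26.7 and -23.5, followed by -12.1 at H2bc14 and -9.81 at H4c6. These 4 calls depended on both the distance and the measure. Within 3 kb, 0 of the 4 were called lower, and H3c11 and H4c6 were called higher. With percentiles among peaks the lower call was kept at H3c14 and H4c6 alone, and by -log10 q at H3c14 and H3c11 alone. By the widest peak it was lost at H4c6, and for peaks touching the gene it was kept at all 4. H3c14 and H4c11 are among the genes whose promoter windows share a stretch of 50 identical bases with another histone gene.

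The cycling values of H1f5 and H3c11 are the same because a single H3K4me3 peak of 7155, 8482 and 7398 bp spanned both genes in replicates 1, 2 and 3. At day 2 each gene had a peak of its own, of 2305 to 3208 bp at H1f5 and of 1677 to 2162 bp at H3c11. The H3K4me3 fold enrichment at day 2 was 24.7, 14.4, 8.30 and 12.4 at H1f5 and 7.70, 7.65, 3.53 and 5.05 at H3c11, higher at H1f5 in all 4 preparations. The joining of peaks thus differed between the states along with the percentiles of these genes, and its part in the differences was not tested. H1f2 and H1f3 had a peak to themselves in all 7 lists, 4103 to 4410 bp wide at H1f2 in cycling cells and 2983 to 3741 bp at day 2.

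Of 57 other genes between the histone genes with a peak in all 7 lists, 26 were called lower and 0 higher, beside 19.7% and 4.51% of all genes. Their median difference was -10.2. Only 5 of them were protein-coding, of which 1 was called lower and 0 higher, with a median difference of -7.94. At histone genes the count called lower depended on a single library. Without cycling replicate 1 it was 24 (42.1%, against 30.9% of all genes), so that histone genes stood above the background instead of below it. Without replicate 2 it was 4 (7.02%, against 22.1%) and without replicate 3 it was 5 (8.77%, against 26.9%). The count called higher was 8 without replicate 1 (against 6.55% of all genes), 15 without replicate 2 (26.3%, against 10.1%) and 9 without replicate 3 (15.8%, against 6.31%). The 8 higher genes were also called higher in each of these, but this was fixed in advance. Leaving out a library cannot make groups overlap that did not overlap before. With percentiles taken among peaks instead of genes, 1 of the 8, H1f5, was called (1.75% of 57, against 1.08% of all genes).

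Genes for histone variants, most of which are made outside S phase too, formed a separate list of 11. All 11 had H3K4me3 in every list, and 2 had a pooled PSME3 peak (18.2%, against 32.3% of all genes with pooled H3K4me3), H2az2 with a fold enrichment of 3.95 and Cenpa with 2.60. H2az2, which encodes an H2A.Z, also had PSME3 peaks in replicates 1 (4.89) and 3 (4.25), and H2ax, which encodes the H2A of DNA damage signalling, had one in replicate 3 alone (3.29). By H3K4me3 percentile, 4 of the 11 were called lower at day 2 (Cenpa, H1f10, Macroh2a1 and Macroh2a2) and 1 higher, beside the 19.7% and 4.51% of all genes. The higher gene was H1f0, the linker histone of resting and differentiated cells, with 94.0, 85.9 and 76.8 in cycling cells and 99.8, 99.7, 96.5 and 98.9 at day 2. Among 19 genes for the transcription and 3′ end processing of histone mRNA, all with H3K4me3, a pooled PSME3 peak was found at 4 (21.1%, against 32.3% of marked genes). In H3K4me3 percentile 4 of the 19 were called lower and none higher at day 2, close to the 19.7% and 4.51% of all genes. Those with a pooled PSME3 peak were Slbp, whose product binds the histone stem-loop (3.61), Ccne1, which encodes cyclin E (3.73), Sympk, which encodes the scaffold symplekin (3.03), and Ncbp1, which encodes a cap-binding protein (2.82). These 4 genes also had a PSME3 peak in replicate 3 (21.1% of the 19, against 19.6% of marked genes). None of the 19 had one in replicates 1 and 2 (against 6.75% and 5.34%), and no gene of either list had one at day 2.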

How the data were processed

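Per the methods and the submitters' processing notes, Trim Galore was used for trimming, Bowtie2 for alignment to mm10 and MACS2 for peak calling. Versions, options, the control library and the treatment of reads with several matches are not given in the sources used here. The deposited lists give each peak a fold enrichment, a ratio to the estimated background, and 2 significance columns, the −log10 p-value and the −log10 q-value, and no q-value in them exceeds 0.1. They hold no read numbers. Of 21 libraries, 14 were used, with the authors' 2 pooled cycling lists.

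Histone genes and lists were chosen with earlier results of these data known. A gene had a peak when one lay within 1 kb of its span in RefSeq GRCm38.p6, and peaks overlapped from 1 bp. Members are not replicates, so no test was run over them. Nothing in the labels ties replicates to separate cultures, although the study calls those of cycling cells biological, and day 2 has 1 library per preparation.

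Genes were named by a rule: those with PSME3 in at least 2 replicates or at day 2, the 2 highest per class, those without H3K4me3, up to 5 non-overlapping genes per direction, those outside the chromosome 13 cluster, and listed variant and processing genes with PSME3. H4c6, H1f1, H1f6, H4c11, H2ax, H1f0, H1f10, Macroh2a1 and Macroh2a2 were described after their values were seen. Python 3.11.15, numpy 2.4.6 and pandas 2.3.3 were used, and the computations were tested on simulated data.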

Additional observations from a re-analysis of the deposited data

How the results depend on the processing

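The number of histone genes with a pooled PSME3 peak was 31, and 26 when the peak had to touch the gene, 32 within 3 kb, 25 at a q-value of at most 0.05, 29 by the peak centre and 29 for genes found by current symbol alone. It was 15 at a q-value of at most 0.01, 12 for pooled peaks found in at least 1 replicate and 2 for those found in at least 2. With peaks required in at least 1 remaining replicate, leaving out 1 replicate gave 2 to 12. The background was 21.9% of protein-coding genes in place of 11.8% of all genes. The mean over PSME3 replicates was 1.33 at a q-value of at most 0.01 and ranged from 1.5 to 7.0 with 1 replicate left out, and that of H3K4me3 from 60.5 to 61.5. The H3K4me3 mean was 58.7 in cycling cells and 55.8 at day 2 for peaks touching the gene, and 64.7 and 62.5 within 3 kb, against 61.0 and 59.2. For the H3K4me3 percentile, the numbers of genes called lower and higher were 4 and 8 (19.7% and 4.51% of all genes). They were 2 and 12 by -log10 q (22.9% and 5.38%), 7 and 8 for peaks touching the gene (19.6% and 4.68%), 2 and 10 within 3 kb (19.5% and 4.38%), 7 and 16 with frozen day 2 preparations alone (27.7% and 9.17%) and 5 and 8 with absent peaks at a percentile of 0 (19.8% and 3.52%). By the widest peak they were 29 and 0 (16.7% and 9.04%), so that lower calls stood above the background at 50.9% of histone genes and higher calls below it. With percentiles among peaks they were 2 and 1 (16.5% and 1.08%). With 1 cycling replicate left out they ranged from 4 to 24 and from 8 to 15. Within 3 kb H3c11 and H4c6, lower at 1 kb, were called higher. The causes were not tested. With the replicate block, in which PSME3 peaks were compared with H3K4me3 of the same replicate number, the share of PSME3 peaks at histone genes that overlapped H3K4me3 stayed 100%. Symbols alone, percentiles among peaks, absent peaks at a percentile of 0, and the pooled counts that require at least 1 replicate were chosen after seeing the data. Without read numbers, a gene without a peak cannot be told from one below the threshold of a shallow library.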
